A study of Rosa hybrid cultivar with 12 samples.

Results

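The genes described here are 72 of the 42307 genes counted in buds of wild-type rose, a hybrid cultivar. They were chosen by measured values: their level was higher at 100 mM than at 10 mM sucrose in every matched pair of libraries, while the average difference between buds with and without auxin was small. The study crossed both factors and sequenced 12 libraries, 3 in each of 4 groups. Buds on 100 mM sucrose had either 1 µM NAA or none, and so did buds on 10 mM sucrose. NAA is a synthetic auxin, and the groups without it still received sucrose, so the contrast is of a higher with a lower dose and not of sugar with none. The labels give flower bud as the tissue, whereas the title of the series is about budburst. The files pair no gene ID with a name, so the tissue could not be checked against marker genes, and no function is given for any gene below.

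As background, sucrose is both the transported sugar that feeds a growing bud and a signal that changes gene expression. Auxin made in the growing shoot tip moves down the stem and holds lateral buds back, a control known as apical dominance. In rose and in pea, sugar supply is known to favour bud outgrowth and to act against the hold of auxin.

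Libraries of the same number share a harvest date in the labels, 20 June, 20 August or 20 October of the same year, so replicates 1, 2 and 3 are called the June, August and October libraries. The labels number 3 replicates a group while the series text speaks of 2 biological replicates, so p-values measure the spread between these libraries, which may be partly technical. In the June set the planting date in the labels differed between all 4 groups, so planting date and treatment cannot be told apart there. The planting dates in the labels fall after the harvest for both 100 mM libraries of June and all 4 August libraries, and on the day of harvest for all 4 October libraries. Gene counts came to between 7369267 and 16757019 per library. The June library of 10 mM sucrose with NAA stood apart: 24.9% of its counts fell on 100 genes, where the remaining libraries had 14.1% to 16.9% on their top 100, and its scaling factor was 0.746, where theirs were 0.999 to 1.1.

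Levels are in CPM, reads of a gene scaled to a common library size of 1000000, and differences are in log2(CPM + 0.5), where 1 stands for 2-fold. They understate the change of genes with low counts. S is the mean of the 6 differences between 100 and 10 mM at the same auxin status and date, and A is the mean of the 6 differences between NAA and no NAA at the same sucrose dose and date. Members had a mean of 2 to 700 CPM over the 12 libraries, S of at least 0.8 with all 6 differences above 0, and an absolute A under 0.4. Of 19260 genes in that CPM range, 425 met the sucrose conditions. Among these, A was at or below -0.4 in 330 genes, at or above 0.4 in 23, and between these limits in the 72 members. Both values were used for the choice and are given as a description with no test.

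**Figure D1:**
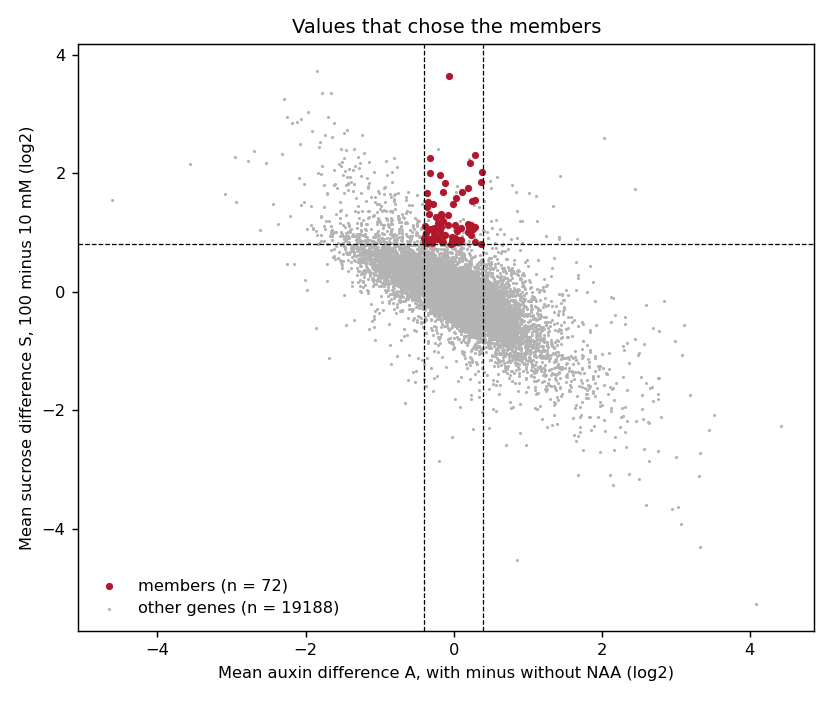
Mean sucrose difference S against mean auxin difference A, both in log2, for the 19260 genes of 2 to 700 CPM, with dashed lines at the limits of 0.8 and 0.4. The 72 members (red) lie at the top of the band between the auxin limits, among the 111 genes there, the rest of which had at least 1 of the 6 sucrose differences at or below 0, and 1 of them stands alone at an S of 3.64.

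Members just inside and just outside the limits hardly differed. The 4 members nearest the sucrose limit had S of 0.809, 0.809, 0.824 and 0.827, and the 4 genes nearest below it had 0.798, 0.798, 0.795 and 0.793. The members nearest the auxin limit had A of -0.397 and 0.383, and the nearest genes beyond it had -0.403 and -0.410. With either of 2 libraries left out the list was over 1.5 times as long: 113 genes without the October library of 100 mM sucrose alone, and 122 without that of 10 mM sucrose alone. These 2 libraries form a matched pair, so leaving out either removes the same sucrose difference, that of October without NAA. Its median in the members was 0.60. Without the June library of 10 mM sucrose with NAA the list held 99 genes, 55 of them among the 72.

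The members' sucrose difference ranged from 0.81 to 3.64, with a median of 1.08. It was at least 1 in 42 members and at least 2 in 5. Most were read at modest depth: the median of their mean levels was 7.89 CPM, against 17.4 CPM over the 19260 genes, with 40 members under 10 CPM and 2 at 100 CPM or more. CPM is not corrected for gene length, so levels are not compared between genes. In whole buds, fewer cells of a type and less RNA per cell cannot be told apart. Together the members took 0.242% ± 0.0212 of gene counts at 100 mM with NAA and 0.227% ± 0.0327 at 100 mM alone, against 0.0795% ± 0.0226 at 10 mM with NAA and 0.102% ± 0.0225 at 10 mM alone (SD, n = 3 each). The lowest library at 100 mM held 0.191% and the highest at 10 mM 0.127%, so the summed level of the doses did not overlap.

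**Figure D2:**
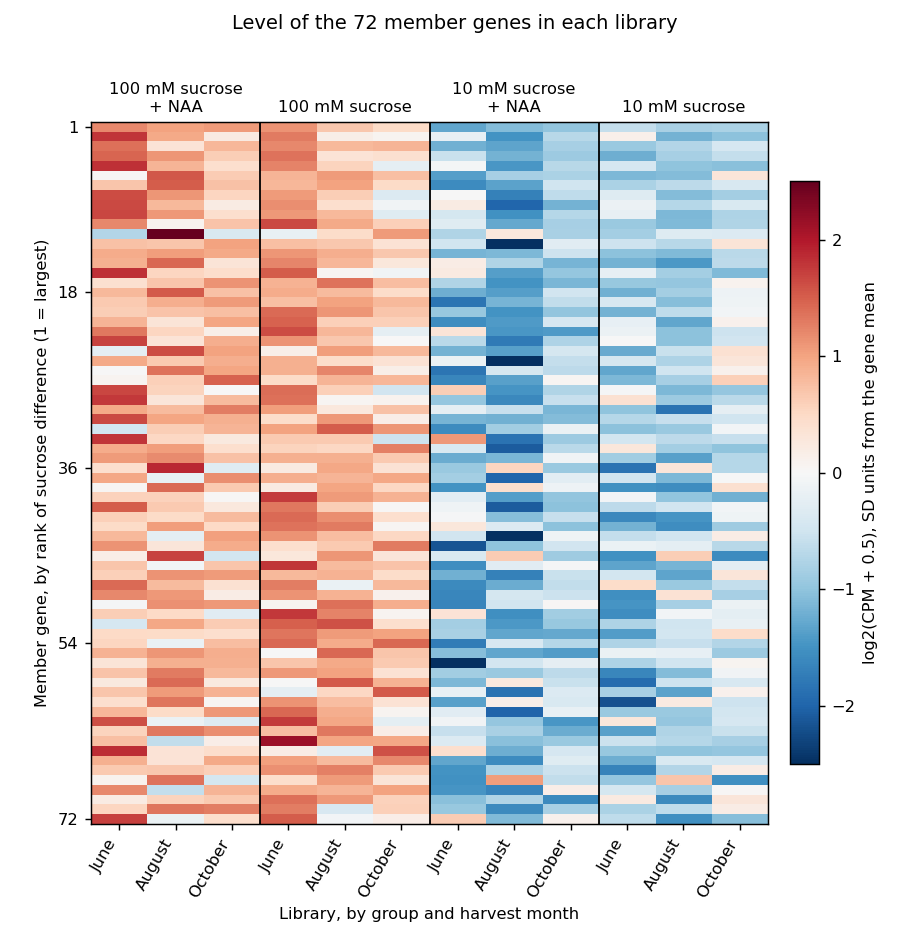
Level of each of the 72 members (rows, by rank of S) in each of the 12 libraries (columns, by group and harvest month), as log2(CPM + 0.5) in SD units from the mean of that gene. The libraries at 100 mM sucrose are mostly red and those at 10 mM mostly blue in both auxin states, and the October column is on average the one nearest 0 in each group.

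Gene by gene, all 6 libraries at 100 mM lay above all 6 at 10 mM in 32 members. This held for 0.665% of the genes in the CPM range, a share set beside the count only because the rule used the same contrast. Without NAA the 3 libraries at 100 mM lay above the 3 at 10 mM in 54 members, and with NAA in 52. The share over all genes was not taken for these comparisons within an auxin state. In the count model (edgeR, quasi-likelihood, Benjamini-Hochberg adjusted p under 0.05) the sucrose average was called higher for 62 members, against 4.92% of the 24267 genes tested. With NAA 27 members were called higher, against 2.02% of tested genes, and without NAA 22, against 0.717%. When the replicate number was added to the model as a block these counts were 59 with NAA, against 6.97% of tested genes, and 44 without it, against 1.69%. For the auxin average 0 members were called, against 24.7% of tested genes, while the blocked fit called 1 higher and 2 lower, against 34% of tested genes. Since the members were picked on these contrasts, nothing further is read from these counts.

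The member with the largest S was gene:RC6G0081800. Its level was 14.6, 10.9 and 12.1 CPM at 100 mM with NAA in June, August and October, and 13.2, 6.89 and 5.14 CPM at 100 mM alone. At 10 mM it was 0, 0.176 and 0.272 CPM with NAA and 0.808, 0.461 and 0.502 CPM alone. Every library at 100 mM stood above every library at 10 mM, where the gene was close to absent. The 0 rests on 0 counts in the library that stood apart, which allows up to 0.546 CPM (3 counts, counting error only).

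Next by S came gene:RC2G0095600, at 2.30. Its levels were 16.2, 6.29 and 2.61 CPM at 100 mM with NAA and 9.32, 2.41 and 2.15 CPM at 100 mM alone, in order of date. At 10 mM they were 1.45, 0 and 0.679 CPM with NAA and 2.32, 0.198 and 0.314 CPM alone. Within each date the higher dose gave the higher level, but the doses overlapped across dates, because the June libraries were the highest of every group.

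The 2 most counted members were gene:RC1G0359400 and gene:RC7G0016600. The first had 352, 340 and 435 CPM at 100 mM with NAA and 358, 333 and 258 CPM at 100 mM alone. At 10 mM it had 128, 23.3 and 153 CPM with NAA and 126, 109 and 250 CPM alone, so the August library with NAA was the lowest and the October library without it came close to the level at 100 mM. The second had 275, 519 and 283 CPM at 100 mM with NAA and 306, 350 and 231 CPM at 100 mM alone. At 10 mM it had 46.4, 55.4 and 107 CPM with NAA and 85.5, 95.4 and 116 CPM alone, well below every library at 100 mM.

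**Figure D3:**
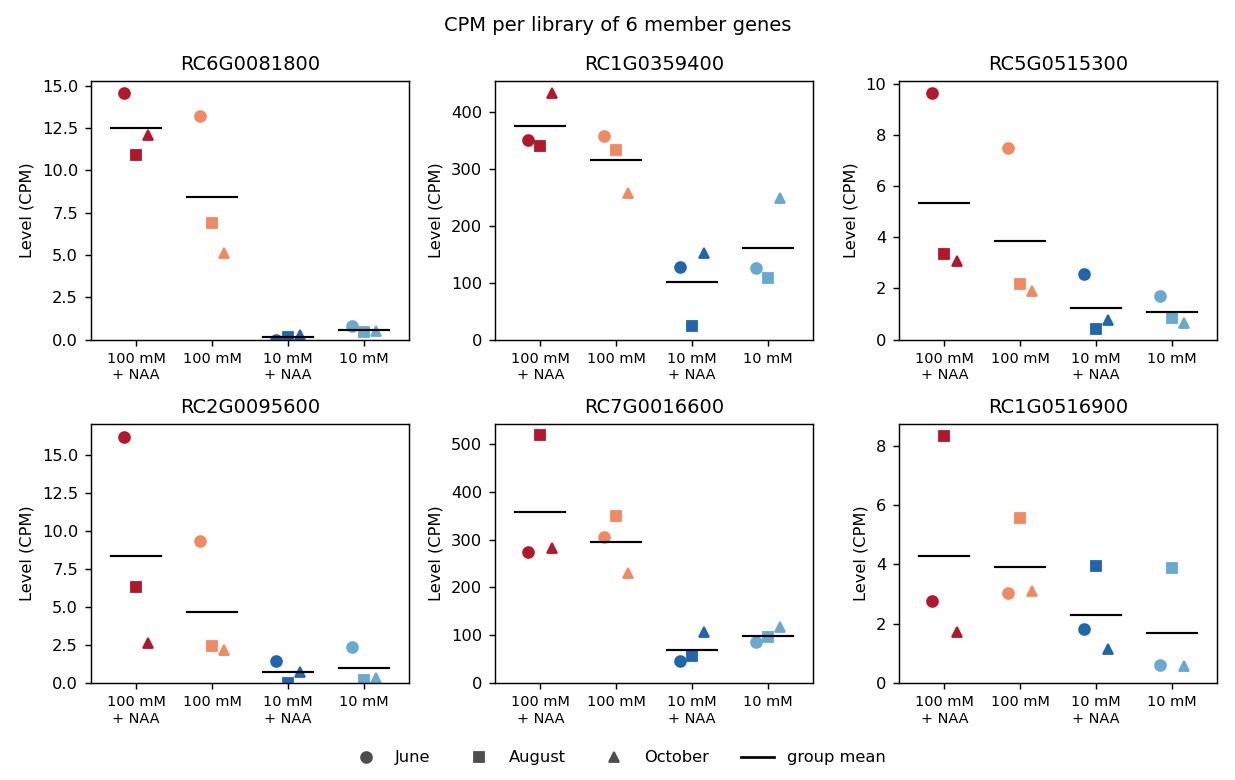
Level in CPM (linear axis from 0) in every library of 6 members, with the mean of each group as a bar and the harvest month as the symbol. RC6G0081800 and RC2G0095600 have the 2 largest sucrose differences, RC1G0359400 and RC7G0016600 are the most counted, and the other two differed between harvests. The means of the 100 mM groups lie above those of the 10 mM groups in all 6, and RC5G0515300 peaks in June and RC1G0516900 in August within each dose.

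One member had a single library far above the rest. For gene:RC1G0488800, which ranks 12th by S at 1.69, the August library of 100 mM sucrose with NAA read 43 CPM, while the remaining 11 libraries read 0.101 to 6.09 CPM. Its sucrose difference had a mean of 1.66 with NAA, where the 3 pairs gave 0.05, 4.16 and 0.78, and of 1.71 without NAA, where that library has no part. Its 6 auxin differences had an SD of 2.19, the widest of all members, and its profile followed the mean profile of the members at r = 0.42 over 12 libraries. Over all members that correlation ran from 0.40 to 0.98 with a median of 0.83, a description of genes picked for the same pattern. The closest follower, named after its values were seen, was gene:RC7G0169700, at 11.1, 12 and 11.3 CPM at 100 mM with NAA and 12.5, 11 and 9.56 CPM at 100 mM alone. At 10 mM it stood at 2.91, 3 and 4.48 CPM with NAA and 3.23, 3.03 and 4.08 CPM alone, so here the auxin groups overlapped at both doses.

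That evenness was not typical. The average auxin difference of the members had a median of -0.12 and was below 0 in 45 of 72, yet all 6 auxin differences lay within 0.4 of 0 in only 5. The SD of the 6 differences had a median of 0.49 and was above 0.4 in 50 members, while its median over the CPM range was 0.32. Among genes with the same sucrose rule, it was 0.62 in the 330 with A at or below -0.4. In the 23 with A at or above 0.4 it was 0.59, so the members were not the most uneven. By dose, the mean auxin difference of the members had a median of 0.04 at 100 mM and -0.17 at 10 mM. It was at or below -0.4 in 7 members at 100 mM and in 22 at 10 mM, and at or above 0.4 in 9 members at 100 mM and in 5 at 10 mM. In 24 members it was above 0 at 100 mM and below 0 at 10 mM, and in 9 the other way round. A small average thus covers opposite signs at the 2 doses in 33 members. The rule kept only averages near 0, which by itself favours opposite signs at the 2 doses. No share over other genes was taken for these counts, so they are not read as particular to the members.

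Whether NAA changed the size of the sucrose difference was not part of the rule, apart from its demand that all 6 differences be above 0. The sucrose difference had a median of 1.18 with NAA and 1.07 without it, and it was larger with NAA in 48 of 72 members. Its edgeR interaction (the sucrose difference with NAA minus that without) had a median of 0.22 in the members, against 0.02 over all tested genes, of which 52.1% were above 0. In the 330 genes with the same sucrose rule and A at or below -0.4 it had a median of 0.51, and in the 23 genes with A at or above 0.4 a median of -0.25. None of these differences between gene sets was tested.

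No member passed the test of that interaction. With edgeR's quasi-likelihood test and Benjamini-Hochberg adjustment 0 of 72 members were called, as were 0% of all tested genes. At an unadjusted p under 0.05 there were 4 members, or 5.56%, against 3.44% of tested genes, and DESeq2 called 0 members with 3 at that unadjusted level. In the edgeR fit with the block, 6 members had an unadjusted p under 0.05, or 8.33%, against 6.94% of tested genes. The count of 4 was 7 without the October library of 10 mM with NAA, and 2 without the June or October library of 100 mM with NAA, the August library of 10 mM with NAA or the June library of 10 mM alone. No share over all genes was taken for DESeq2 or with libraries left out, so these shifts are not read as particular to the members. The quasi-dispersion, the spread left within groups in this fit, had a median of 1.19 in the members and 0.595 over all tested genes. Every group held a library of each date, so this spread includes differences between dates. In the fit with the block the medians were 1.07 and 0.688. A difference between the auxin states that missed the threshold is not shown to be absent.

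The smallest interaction p belonged to gene:RC6G0081800, whose levels are given above. Its sucrose difference was larger with NAA, by 2.12 on the log2 scale (SE 0.730, edgeR quasi-likelihood adjusted p = 0.963, and 0.717 with the block). The fitted size depends on the near absence of the gene at 10 mM, where it had 7 counts over 3 libraries with NAA and 23 without. Of the members whose sucrose difference was smaller with NAA, gene:RC6G0414000 had the smallest p. It stood at 40.5, 52.7 and 41 CPM at 100 mM with NAA and 60.5, 58.8 and 33.5 CPM at 100 mM alone, against 37.3, 28 and 20.5 CPM at 10 mM with NAA and 19.1, 16.1 and 21.9 CPM at 10 mM alone. The October library at 100 mM alone was the low one of its group and the June library at 10 mM with NAA the high one of its group. The interaction was -0.78 (SE 0.351, edgeR quasi-likelihood adjusted p = 0.963).

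**Figure D4:**
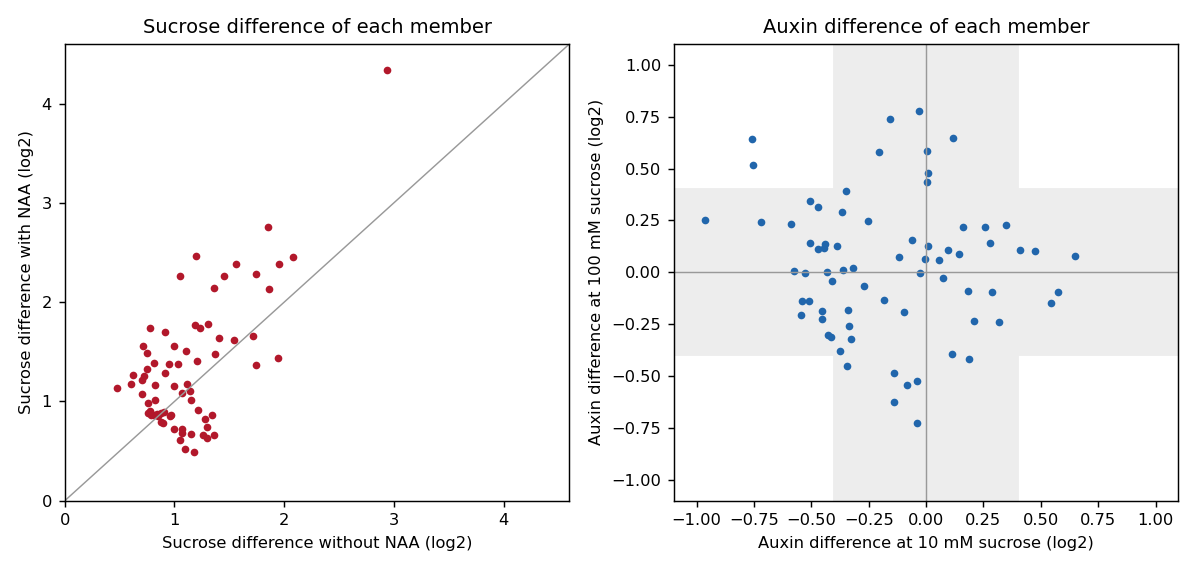
Left, the sucrose difference of each of the 72 members with NAA against that without it, in log2(CPM + 0.5), with the line of equal differences, above which 48 members lie. Right, the auxin difference of each member at 100 mM against that at 10 mM sucrose, where grey bands mark differences within 0.4 of 0 and the 24 members at upper left are higher with NAA at 100 mM and lower with it at 10 mM.

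By harvest, the median sucrose difference of the members was 1.23 in June, 1.36 in August and 0.78 in October. October gave the smallest of the 3 values in 59 of 72 members, or 81.9%, against 37.9% of the genes in the CPM range. Genes in that range had sucrose differences of both signs, so their share is a loose comparison. October was also lowest by median in the other genes that met the sucrose conditions. In the 330 that were on average lower with NAA the medians were 1.21, 1.44 and 1.00 in June, August and October. In the 23 that were on average higher with NAA they were 1.22, 1.82 and 0.93. A smaller October difference was thus not particular to the members, and these sets were not tested against each other. With NAA the medians of the members were 1.17, 1.41 and 0.97 in June, August and October, and without it 1.37, 1.33 and 0.60. Over the CPM range the difference without NAA had a median of -0.12 in October, so that pair of libraries was shifted for genes at large.

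A test of the sucrose difference across dates, added after these values were seen, called 0 members and 0% of tested genes (edgeR quasi-likelihood test, 2 degrees of freedom, Benjamini-Hochberg adjustment). At an unadjusted p under 0.05 there were 15 members, or 20.8%, against 4.03% of tested genes. The rule chose the members by these same sucrose differences, while the tested genes include many with little sucrose difference to vary. The share was not taken for the other genes that met the sucrose conditions, so nothing is read from this contrast. That number was 24 without the June library of 10 mM sucrose with NAA and 9 without the August library of 100 mM sucrose with NAA. The share of tested genes with a library left out was not taken, so these shifts are not read as particular to the members.

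The same rule was also applied to 2 dates at a time, and the genes it chose were then measured in the date left out. The 130 genes chosen from June and August had a median sucrose difference of 0.51 in October, against 1.06 in the dates that chose them, and it was above 0 in 122. The 73 genes chosen without June had a median of 1.01 in June, with 71 above 0, and the 73 chosen without August had 1.35 in August, with 72 above 0. Over all genes in the CPM range these medians lay between -0.04 and 0.003, and 45.8% to 50.3% were above 0. Both differences of the date left out were above 0 in 57 of 73 genes in June, 70 of 73 in August and 87 of 130 in October, against 29.2%, 37.0% and 25.7% of the genes in the CPM range. The mean difference reached 0.8 again in 49, 53 and 34 of them. No share over the genes in the CPM range was taken for that limit, so these counts have no background. These values were not tested.

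The lack of an auxin difference recurred less. In June 35 of the 73 genes chosen from the other dates had a mean auxin difference within 0.4 of 0, or 47.9%, against 55.5% of the genes in the CPM range. In August it was 43 of 73, or 58.9%, against 56.0%, and in October 105 of 130, or 80.8%, against 70.7%. These shares lay near the background, so a flat auxin response on 2 dates is not shown here to recur on the third.

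Harvest date itself was balanced over both treatments, so the choice of members did not use the level at each date. In the labels, replicate number and planting date also changed with harvest date, so their effects cannot be told apart from it. By edgeR's quasi-likelihood F test on 2 degrees of freedom, 15 of the 72 members were called for harvest date, or 20.8%, against 5.91% of all tested genes. In the 330 genes with A at or below -0.4 the share was 20.3%, and in the 23 genes with A at or above 0.4 it was 34.8%. Of the 15 members, 10 were highest in June, 3 in August and 2 in October, while June was the peak for 34.5% of all genes called. Over all members the October minus June difference was near balance, with a median of 0.02 and 38 of 72 above 0. In the 330 genes with A at or below -0.4 it was above 0 in 86.4%, and in the 23 genes with A at or above 0.4 in 0, and the sets were not tested against each other. The median size of that change was 0.36 in members and 0.23 in all tested genes, and the quasi-dispersion of the fit was 1.07 in members and 0.688 in all tested genes. In the 330 genes the median size was 0.51 and the quasi-dispersion 1.15, and in the 23 genes they were 1.13 and 1.42.

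The call with the smallest p, gene:RC5G0515300, was highest in June in every group. It read 9.64, 3.34 and 3.07 CPM at 100 mM with NAA, 7.48, 2.16 and 1.91 CPM at 100 mM alone, 2.55, 0.411 and 0.747 CPM at 10 mM with NAA and 1.72, 0.857 and 0.627 CPM at 10 mM alone, each in order of date. It fell by 1.70 in August (SE 0.230) and by 1.73 in October (SE 0.236) relative to June on the log2 scale, with an edgeR quasi-likelihood adjusted p of 0.00388. The next, gene:RC0G0017100, fell by 1.13 in August (SE 0.157) and by 0.65 in October (SE 0.155) relative to June (edgeR quasi-likelihood adjusted p = 0.00857). Its mean over the 4 libraries of a date was 15.5 ± 6.82 CPM in June, 7.02 ± 2.42 CPM in August and 9.51 ± 2.69 CPM in October (SD, n = 4, sucrose doses included).

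Not all such members peaked in June. In gene:RC1G0516900 the August library was the highest of every group, at 8.34 CPM at 100 mM with NAA, 5.56 CPM at 100 mM alone, 3.94 CPM at 10 mM with NAA and 3.89 CPM at 10 mM alone, while the June and October libraries read 0.564 to 3.11 CPM. August exceeded June by 1.47 (SE 0.311) on the log2 scale (edgeR quasi-likelihood adjusted p for date = 0.0114). In gene:RC3G0269600 June was the lowest library of every group. Its mean was 44.6 ± 16.7 CPM in June, 71.9 ± 32 CPM in August and 73.1 ± 18.8 CPM in October (SD, n = 4), and October exceeded June by 0.74 (SE 0.124, edgeR quasi-likelihood adjusted p = 0.0151).

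With single libraries left out, the number of members called for harvest changed, as did the share of all genes. It was 6, 8 and 3 without the June, August and October library of 100 mM sucrose with NAA, beside 2.44%, 2.32% and 1.02% of all genes. It was 9 without the June library of 100 mM alone and 9 without the August library of 10 mM alone, beside 3.65% and 2.63%. Without the June library that stood apart it remained 15, beside 7.72%. The call of gene:RC3G0269600 was lost without the June or October library of 100 mM with NAA (edgeR quasi-likelihood adjusted p = 0.0554 and 0.0503) and that of gene:RC1G0516900 without the August one (0.0503).

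**Figure D5:**
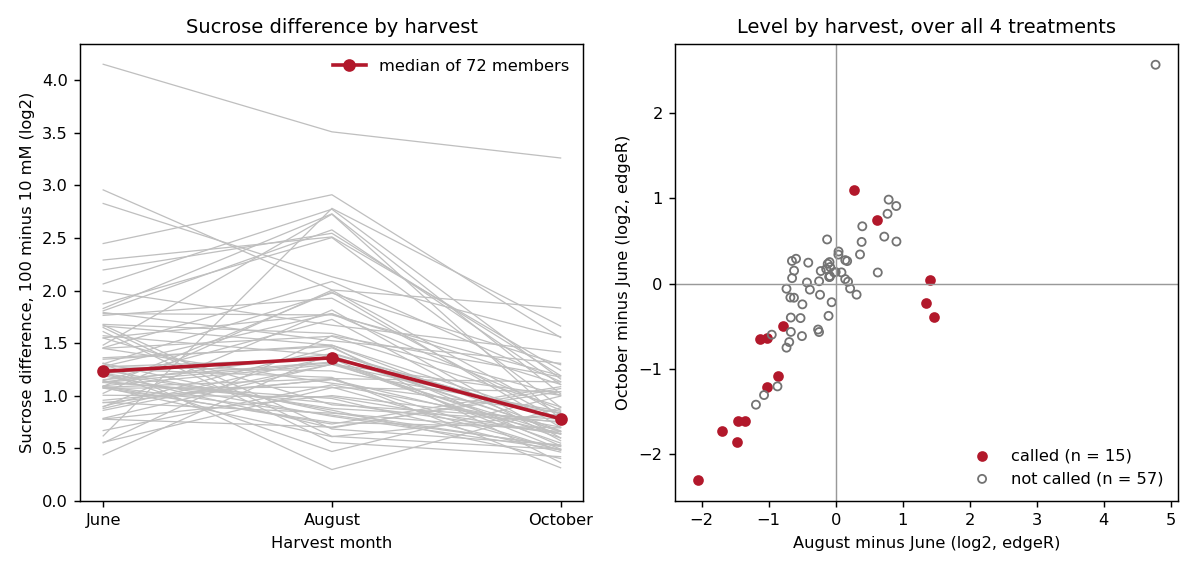
Left, the sucrose difference in log2(CPM + 0.5) of each of the 72 members (grey lines) by harvest month, with the median in red at 1.23, 1.36 and 0.78. Right, the change in level from June to August and to October (log2, edgeR), with the 15 members called for harvest date filled, of which the largest group lies at lower left, highest in June.

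Counts on the opposite strand were not used to choose the members. They made up a median of 0.190% of the reads of a member on both strands, against 0.151% over the CPM range, and no member was read mainly on that strand. Summed over members, opposite-strand reads were 0.478% at 100 mM and 0.692% at 10 mM, with 765 and 513 counts. A large part of these counts at both doses came from the 2 members with a mean of at least 10, described below. The highest share, 22.4%, was in gene:RC2G0129800, with 96 opposite-strand counts beside 332. In the 2 members with a mean of at least 10 opposite-strand counts, the sucrose difference on that strand was 0.17 in each, against 1.69 and 0.92 on the gene's own strand, and it was above 0 in 4 and 3 of 6 pairs. Their opposite-strand reads did not follow the sucrose dose as their own-strand reads did, a difference that was not tested.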

How the data were processed

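PolyA-selected, stranded, paired-end libraries were sequenced, per the labels. The authors deposited raw counts per gene in 3 columns (strand ignored, forward and reverse). TopHat2 and Bowtie2 are named in the submitters' processing notes, with no role or version. Build and annotation: not given in the sources used here. Analyses took the reverse column, and 4 summary rows, 17.3% to 23.2% of reads, were dropped. Gene counts per library ran from 7369267 to 16757019, so counting error mattered mainly for members under 10 CPM.

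CPM used TMM factors from all 42307 genes. Counts were tested in R 4.3.3 with edgeR 4.0.16 (filterByExpr, count minimum 10 and total minimum 15, leaving 24267 genes and all 72 members, TMM, 1 mean per group, all 12 libraries, calls at an adjusted p under 0.05) and, as an alternative, DESeq2 1.42.0. Harvest date was added to the group means for its own test. The fits were tested on simulated data. Libraries of 1 group differed by more than sampling noise in every pair. Numbers pair libraries through the harvest date in the labels: the 18 pairs that share a number had a mean correlation of 0.298 between their departures from their groups (0.0647 to 0.592). Genes to name were those ranking highest by S (12) or mean CPM (6), lowest by interaction p (5) or harvest p (6), nearest the limits, or with neighbouring IDs, plus the 5 other genes most like the mean profile. Only a few of them are printed, because the files pair no ID with a name. Members, lists and tests were chosen with earlier results of these data known. Planned gene lists by function, promoter motifs and tissue markers could not be used without annotation. Alternatives were other scalings, pseudocounts and limits, counts that ignore strand, no low-count filter, a replicate block, DESeq2 and each library or date left out. The block on the sucrose calls, DESeq2 with the block and the test of sucrose by date were added after the data were seen.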

Additional observations from a re-analysis of the deposited data

Results flagged for a closer look

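The auxin difference of gene:RC6G0081800 had one sign at 100 mM sucrose and the other at 10 mM in every pair of libraries. It was higher with NAA on all 3 dates at 100 mM, by a mean of 0.64 on the log2(CPM + 0.5) scale, and lower with NAA on all 3 dates at 10 mM, by a mean of -0.76. The interaction of this gene was not called (edgeR quasi-likelihood adjusted p = 0.963), and the level at 10 mM rests on 7 counts with NAA and 23 counts without it.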

How the results depend on the processing

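The number of members was 42 with S of at least 1, 36 with an absolute A under 0.2, 119 with no CPM range, 109 on plain library sizes (71 of the 72 among them, with the median S of the genes in the CPM range at 0.09) and 130 when October was left out, and it ran from 66 to 122 with each library left out. Relative log expression (RLE) size factors from edgeR gave 83 genes, all 72 among them. The cause of these shifts was not tested. The interaction count was 0 under all 17 alternatives, the replicate block included. The block gave 59 sucrose calls with NAA (6.97% of all tested genes), against 27 in the fit without it (2.02%), and 44 without NAA (1.69%), against 22 (0.717%). Calls for harvest date ran from 3 (1.02% of all genes) to 21 (10.6%) with each library left out, and DESeq2 called 21 (11.5%), against 15 (5.91%). The October minus June direction held for all 4 named members under all 16 alternatives. Depth limits members under 10 CPM, where a library can hold fewer than 10 counts.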

Other observations

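Outside the 72 genes, the gene in the CPM range whose profile over the 12 libraries was most like the mean profile of the members was gene:RC7G0283200 (r = 0.95, a description over libraries that also chose the members). It read 24 to 28.6 CPM at 100 mM with NAA and 24.7 to 30.7 CPM at 100 mM alone, against 17.3 to 20.7 CPM at 10 mM with NAA and 18.4 to 23.4 CPM at 10 mM alone, so the doses did not overlap although S was only 0.45. The next, gene:RC3G0061100 (r = 0.92), had an S of 2.21 but also an A of -0.92.

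A single pair of members, gene:RC6G0251100 and gene:RC6G0251200, had neighbouring IDs. Their levels correlated at r = 0.65 over 12 libraries that share both treatments. IDs beginning with RC6 made up 17 of the 72 members, or 23.6%, against 14.7% of the genes in the CPM range, and the files do not explain this digit. This was the largest share of members among the beginnings RC0 to RC7. RC3 lay the other way, with 3 members, or 4.17%, against 9.96%. These shares were not tested.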
